A study of Homo sapiens with 36 samples.

Results

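HCT 116 is a human colorectal carcinoma line, and its untreated state was set against 5 other colon cancer lines, SW 480, HT-29, COLO 205, HCT-15 and COLO 320. The members were the 3 DMSO libraries of HCT 116 among 36 libraries in all, compared with the 15 DMSO libraries of the other lines, each line counting equally. All 6 lines were given 0.5 µM JQ1, a BET bromodomain inhibitor, or the solvent DMSO for 24 h, with 3 libraries for each line and treatment. Bulk RNA was sequenced, and the 18 JQ1 libraries served as a second set in which to measure the same line difference. The labels do not say whether replicates were separate cultures, so p-values measure the spread between these libraries, which may be technical.

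Colon cancer lines carry different driver mutations and have kept different amounts of the epithelial programme. As background, HCT 116 is known as a mismatch repair deficient line with mutant beta-catenin. HCT-15 is also known as mismatch repair deficient, HT-29 and COLO 205 as BRAF mutant, and COLO 320 for amplified MYC. HCT 116 is 1 line, so none of these features can be told apart from any other that sets it off from the rest.

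Expression was measured as RPKM, reads per kilobase of gene scaled to sequencing depth. The 15145 genes tested had at least 1 RPKM in 3 or more of the 18 DMSO libraries, and a difference is log2(RPKM + 0.5) in HCT 116 minus the mean over the other 5 lines unless another comparison is named. A gene was called at a Benjamini-Hochberg adjusted p under 0.05 in limma. Reads in genes numbered 23 to 26.3 M in the HCT 116 DMSO libraries and 20.2 to 26.3 M over all 18. The colon epithelial markers fitted the label of HCT 116 in part. Of 10 markers, 6 reached 1 RPKM in HCT 116, and VIL1, LGALS4, CDH17 and GPA33 stayed near 0. The 10 summed to 1331 to 1393 RPKM in HCT 116 libraries, against 1153 to 1165 RPKM in COLO 320 and 2327 to 4401 RPKM in the other 4 lines. Sums of markers of other cell types were as follows in HCT 116. The 8 fibroblast markers summed to 1.86 to 2.36 RPKM with 5 at 0, the 8 leukocyte markers to 4.45 to 4.92 RPKM with 2 at 0, and the 5 endothelial markers to at most 0.0764 RPKM. In the other lines the largest sums were 15.8 RPKM for fibroblast markers in COLO 320 and 1553 RPKM for leukocyte markers in HT-29, where lysozyme LYZ made up nearly all of it. The 8 neuroendocrine markers summed to 19.2 to 20.7 RPKM in HCT 116, above HT-29, COLO 205 and COLO 320 (8.8 to 10.8 RPKM) and below HCT-15 and SW 480 (28 to 43.9 RPKM). Only 1 of these 8 reached 1 RPKM in HCT 116, and of the 5 tested 1 was higher and 4 lower. ENO2, 1 of the 8, had 7.39 to 36.2 RPKM across the other lines' libraries, so the sum does not show a neuroendocrine state.

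HCT 116 differed from the mean of the other lines at most genes. 6301 genes were higher, which is 41.6% of those tested, and 7019 were lower, 46.3%. At 2-fold or more, 1430 genes were higher (9.44%) and 1461 lower (9.65%), and the median difference of all genes was -0.03. These counts rest on the spread between replicate libraries. When each line was reduced to 1 mean and HCT 116 was set against the spread between the 5 other lines, with 4 residual degrees of freedom, limma called 5 genes higher and 4 lower, and 553 genes had an unadjusted p under 0.05. Of those 9 genes 8 are described here: GTSF1, MAGEB2, HBE1 and OR51B5 were higher, and CBR1, CBR1-AS1, NNT and SCCPDH were lower.

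Of the 5 lines, HCT-15 was nearest to HCT 116. At 2-fold or more, 2659 genes differed between HCT 116 and HCT-15 (17.6%), the fewest of the 15 pairs of lines. The count was 3975 against SW 480 (26.2%), 4450 against HT-29 (29.4%), 4595 against COLO 320 (30.3%) and 4957 against COLO 205 (32.7%). The median size of the difference over all genes was 0.37 against HCT-15 and 0.63 against COLO 205 on the log2 scale.

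A mean over 5 lines can hide 1 line at the level of HCT 116, so genes were also asked to differ from each of the 5 lines with 1 sign and to be at least 2-fold from the nearest. HCT 116 stood above every other line at 307 genes (2.03%) and below every other line at 121 genes (0.799%). The same rule gave 574 above (3.79%) and 124 below (0.819%) for SW 480, 394 (2.60%) and 188 (1.24%) for HT-29, and 654 (4.32%) and 265 (1.75%) for COLO 205. It gave 94 above (0.621%) and 97 below (0.640%) for HCT-15 and 765 above (5.05%) and 683 below (4.51%) for COLO 320. HCT 116 therefore had the second lowest count above the other lines and the second lowest below them. Among the 307 genes above, SW 480 was the nearest line for 132, and among the 121 genes below, HCT-15 was the nearest for 34. Without SW 480 the count above the remaining lines was 464, and the count below was 232 without HCT-15 and 249 without COLO 320. Of the 307 and 121 genes, 265 and 106 were protein coding, and 15 and 6 were long non-coding RNAs.

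**Figure D1:**
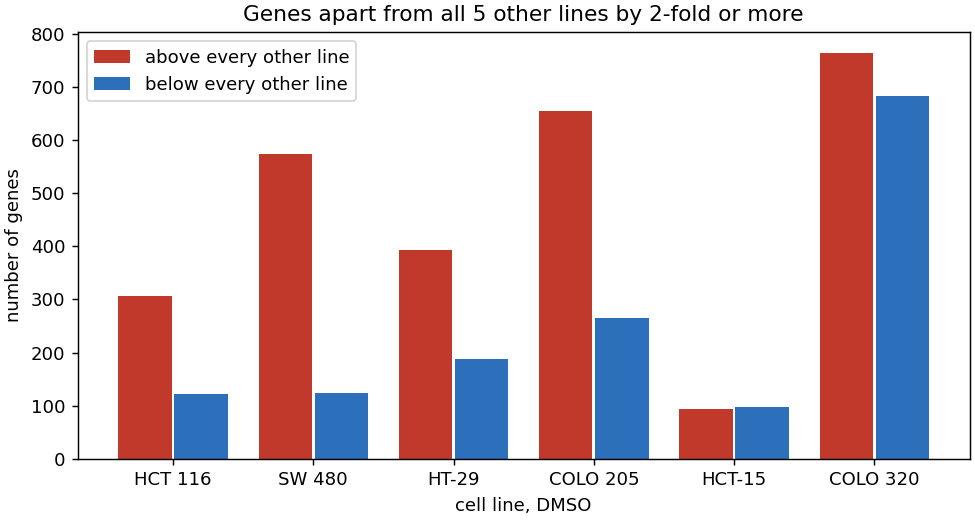
Number of genes (vertical axis) at which each line's DMSO libraries stood above (red) or below (blue) all 5 other lines by 2-fold or more, with 3 libraries a line and no error bars because each bar is a count. HCT 116 had 307 genes above and 121 below, between HCT-15 (94 and 97) and the other 4 lines.

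Some of these genes were at high level in HCT 116 and close to 0 elsewhere. GTSF1, which in mouse acts in the piRNA pathway of germ cells, had 146.5, 144.4 and 141.3 RPKM in the HCT 116 libraries, against a lowest of 0, a median of 0.0484 and a highest of 0.285 RPKM over the 15 libraries of the other lines. MAGEB2, a cancer-testis antigen of the X chromosome, had 120.5, 121.3 and 120 RPKM in HCT 116, against 0, 0.0307 and 0.254 RPKM as lowest, median and highest in the other lines. The differences of 8.0 (SE 0.10, adjusted p = 1.49e-19, limma) and 7.79 (SE 0.08, adjusted p = 3.16e-20, limma) were the 2 furthest above the nearest line. Both genes were chosen for that distance, so the lack of overlap between groups and the small p-values follow from the choice. A cancer-testis gene is one whose RNA is found mainly in germ cells. Of 46 such genes listed, 8 passed the filter, 4 higher and 4 lower, and these 8 do not stand for the list. MAGEA3 averaged 17.5 RPKM in HCT 116 and at most 2.37 RPKM in any other line. PRAME averaged 16.2 RPKM in HCT 116, below the 22.6 RPKM of COLO 320. MAGEA genes are near copies of each other, so their reads can be split between members.

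A run of 4 neighbouring genes on chromosome 11 stood above every other line in DMSO. HBE1 encodes the embryonic epsilon chain of haemoglobin, and it had 72.2, 70.9 and 74.0 RPKM in HCT 116, against at most 0.521 RPKM in any other library. The olfactory receptor genes beside it followed: OR51B5 had 50.4, 50.1 and 50.9 RPKM in HCT 116 against at most 0.234 RPKM elsewhere, and OR51B4 had 14.8, 16.3 and 16.2 RPKM against at most 0.0828 RPKM. OR51B2 averaged 5.15 RPKM in HCT 116 and was listed at 0 in the other 5 lines. The adult and fetal globin genes of the locus stayed low in HCT 116, with HBG2 at 0.454 RPKM, HBD at 0.0959 RPKM and HBB at 0.0186 RPKM. Transcripts of this region may overlap, and without strand information their reads cannot be assigned with certainty to 1 gene. Other runs of neighbours were found, with no share over all genes computed to compare them with. Of 291 genes above that could be placed in RefSeq order, 65 lay in 29 runs of adjacent tested genes. Among them were LIFR with OSMR, EREG with AREG and CAV1 with CAV2. Some runs, above or below, hold overlapping genes whose reads cannot be told apart, such as MIR3918 with its host SYTL3 and CBR1 with CBR1-AS1. Of 115 placed genes below, 22 lay in 11 runs.

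The other genes furthest above are given 1 by 1. VCAN, the matrix proteoglycan versican, had 18.7, 19.4 and 17.6 RPKM in HCT 116 and at most 0.0329 RPKM in any other library. COL6A2, a chain of collagen VI, had 20.3, 20.9 and 23.6 RPKM in HCT 116 and at most 0.259 RPKM elsewhere. OSMR, the receptor subunit for oncostatin M, had 14.3, 15.3 and 15.2 RPKM in HCT 116 and at most 0.0466 RPKM elsewhere. Differences of these 3 genes were 5.20, 5.31 and 4.92, and the lack of overlap with the other lines follows from how they were chosen. CPA4, a secreted carboxypeptidase, averaged 29.1 ± 1.75 RPKM in HCT 116 (SD, n = 3) and at most 0.692 RPKM in another line. MIR100HG, a long RNA that hosts a microRNA cluster, averaged 19.6 ± 0.37 RPKM in HCT 116 and at most 0.145 RPKM in another line. TRIM72, a membrane repair protein of muscle, averaged 15.7 ± 0.49 RPKM in HCT 116 and at most 0.24 RPKM in another line. The short MIR3918 gene averaged 64.5 ± 3.43 RPKM in HCT 116 and at most 2.34 RPKM elsewhere, but it lies in SYTL3, itself above every line, and its reads cannot be told from those of its host.

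**Figure D2:**
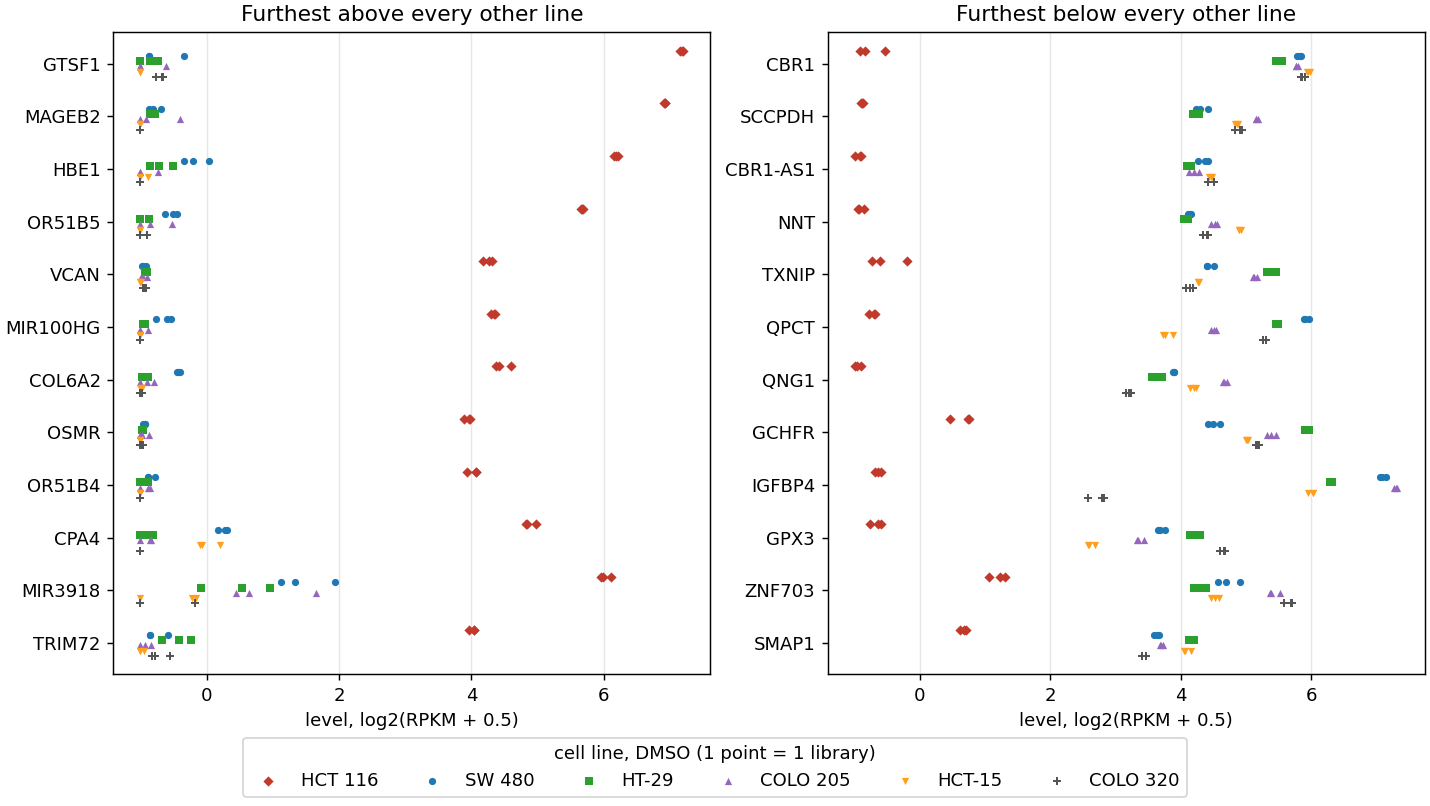
Level of each gene in log2(RPKM + 0.5) (horizontal axis) for the 12 genes furthest above and the 12 furthest below every other line. Each point is 1 DMSO library, and red diamonds are HCT 116. In each row the HCT 116 points stand apart from all 15 others, which follows from how these genes were chosen. Levels run from 146.5 against at most 0.285 RPKM at GTSF1 to 1.04 to 1.13 against at least 10.1 RPKM at SMAP1.

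Other genes were close to 0 in HCT 116 and well expressed in each other line. CBR1, a carbonyl reductase that uses NADPH, had 0.0305, 0.0562 and 0.193 RPKM in HCT 116, which is 9 reads over the 3 libraries, against a lowest of 43.4, a median of 56.1 and a highest of 62.4 RPKM in the other lines. CBR1-AS1 overlaps it and its reads cannot be told apart from those of CBR1. SCCPDH, a predicted oxidoreductase, had 0.046, 0.0424 and 0.0323 RPKM in HCT 116, against 17.7, 28.1 and 35.7 RPKM as lowest, median and highest elsewhere. NNT, the mitochondrial transhydrogenase that makes NADPH from NADH, had 0.0156, 0.0216 and 0.0495 RPKM in HCT 116, against 16.1, 20.6 and 29.7 RPKM elsewhere. At each of these genes the 3 HCT 116 libraries lay far below all 15 others. These genes were chosen for that distance, so the gap and the small p-values follow from the choice. Differences were -6.55 for CBR1, -5.58 for SCCPDH and -5.32 for NNT, with limma adjusted p of 1.64e-21, 4.30e-23 and 9.77e-24.

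The other genes furthest below followed the same pattern. TXNIP, which binds and inhibits thioredoxin, had 0.103, 0.155 and 0.368 RPKM in HCT 116, against 16.4, 20.6 and 43.5 RPKM as lowest, median and highest in the other libraries. GPX3, the secreted glutathione peroxidase, averaged 0.128 ± 0.04 RPKM in HCT 116 and 5.63 to 24.6 RPKM in the other lines. GCHFR, the feedback regulator of GTP cyclohydrolase, averaged 1.08 ± 0.17 RPKM in HCT 116 and 22.2 to 60.9 RPKM in the others. QPCT, which cyclises N-terminal glutamine, averaged 0.104 ± 0.02 RPKM in HCT 116 and 13.3 to 60.1 RPKM in the others. QNG1, a queuosine salvage enzyme, had 3 reads over the 3 HCT 116 libraries and 8.70 to 25.0 RPKM in the others. IGFBP4, an insulin-like growth factor binding protein, averaged 0.14 ± 0.02 RPKM in HCT 116 and 6.16 RPKM in COLO 320, with 63.6 to 156.5 RPKM in the other 4 lines. SMAP1, an Arf GTPase activating protein, averaged 1.09 ± 0.05 RPKM in HCT 116 and 10.4 to 17.4 RPKM in the others, and ZNF703, a zinc finger repressor, averaged 1.79 ± 0.20 RPKM in HCT 116 and 19.3 to 50.1 RPKM.

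At a stricter mark, 32 genes had at least 5 RPKM in HCT 116 and under 0.5 RPKM in every other line, and 12 genes showed the opposite. The matching counts of genes on alone and off alone were 48 and 4 in SW 480, 30 and 8 in HT-29, 61 and 15 in COLO 205, 5 and 4 in HCT-15, and 105 and 123 in COLO 320, so HCT 116 lay within the range of the other lines on both sides.

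The promoters of the 2 genes furthest above and the 2 coding genes furthest below are shown to give their CpG content, since a CG pair is the site at which promoters are methylated. Each window runs from 250 bases before to 50 bases after a transcription start in RefSeq on GRCh38.p14, and CG pairs are in capitals. GTSF1 is at chr12:54473553-54473852 on the minus strand, MAGEB2 at chrX:30215313-30215612, CBR1 at chr21:36069774-36070073 and SCCPDH at chr1:246724159-246724458, the last 3 on the plus strand.
GTSF1: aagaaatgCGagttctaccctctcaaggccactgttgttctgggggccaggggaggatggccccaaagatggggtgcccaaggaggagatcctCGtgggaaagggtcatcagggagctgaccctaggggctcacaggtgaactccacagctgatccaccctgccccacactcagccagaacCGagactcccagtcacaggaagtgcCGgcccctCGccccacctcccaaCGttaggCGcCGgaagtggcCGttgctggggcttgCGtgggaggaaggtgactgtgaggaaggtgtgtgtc
MAGEB2: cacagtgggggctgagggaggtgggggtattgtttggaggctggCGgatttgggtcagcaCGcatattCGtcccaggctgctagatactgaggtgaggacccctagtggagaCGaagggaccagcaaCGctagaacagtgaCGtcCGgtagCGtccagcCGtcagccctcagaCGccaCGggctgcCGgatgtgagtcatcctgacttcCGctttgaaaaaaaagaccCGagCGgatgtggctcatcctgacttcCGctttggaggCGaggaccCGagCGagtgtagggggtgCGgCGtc
CBR1: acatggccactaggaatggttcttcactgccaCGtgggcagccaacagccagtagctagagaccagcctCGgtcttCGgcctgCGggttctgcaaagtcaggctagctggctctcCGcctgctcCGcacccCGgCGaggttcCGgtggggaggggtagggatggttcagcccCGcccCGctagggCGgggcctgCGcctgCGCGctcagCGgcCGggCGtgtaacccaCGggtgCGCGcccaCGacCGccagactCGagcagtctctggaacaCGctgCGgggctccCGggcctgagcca
SCCPDH: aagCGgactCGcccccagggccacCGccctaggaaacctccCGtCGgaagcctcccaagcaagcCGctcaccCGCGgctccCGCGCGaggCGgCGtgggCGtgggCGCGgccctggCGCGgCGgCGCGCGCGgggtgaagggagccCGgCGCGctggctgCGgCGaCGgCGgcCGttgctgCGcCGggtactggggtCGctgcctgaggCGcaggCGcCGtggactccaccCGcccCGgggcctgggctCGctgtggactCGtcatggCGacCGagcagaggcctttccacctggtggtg
The windows hold 10, 21, 27 and 43 CG pairs in the order shown. Of the 11208 tested genes matched to a window, with the richest window taken where a gene has several, 91.1% held as many as GTSF1, 74.3% as many as MAGEB2, 55.7% as many as CBR1 and 10.9% as many as SCCPDH. The median was 28 over these genes, 28 over 211 of the 307 genes above every line and 29 over 96 of the 121 below. CG-poor windows, with 5 or fewer pairs, made up 14.1% of the 1065 matched genes lower by 2-fold or more, 4.91% of the 978 matched genes higher by 2-fold or more and 5.35% of all those matched. Methylation was not measured in these libraries.

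Mismatch repair corrects bases and short loops left by replication, through MutS dimers that recognise the mismatch and MutL dimers that act on it. Of 20 genes of the pathway, 9 were higher and 9 lower in HCT 116, with 0 higher and 2 lower by 2-fold. Both of these lay below every other line, and MSH3 is the one described here. Over all genes tested the shares were 41.6% higher and 46.3% lower. MSH3, the MutS subunit for larger loops, had 1.15, 1.20 and 0.926 RPKM in HCT 116, against a lowest of 7.69, a median of 11.2 and a highest of 12.7 RPKM in the other libraries. HCT 116 lay below every other line, as it did by 2-fold or more at 0.799% of all genes, with a difference of -2.75 (SE 0.04, adjusted p = 1.57e-18, limma). MSH3 was named for the largest difference among the called genes of the pathway, so its p-value adds no separate evidence. MSH6, the MutS subunit for single mismatches, averaged 31.3 RPKM in HCT 116, against 4.76 RPKM in HCT-15 and 36.2 to 89.5 RPKM in the other 4 lines, and was not called (adjusted p = 0.955, limma). PMS2, a MutL subunit, averaged 8.06 RPKM in HCT 116 and 3.20 to 7.14 RPKM in the others. PMS1, another MutL subunit, was also higher (0.87), and POLD3, a subunit of replicative polymerase delta, was lower (-0.92).

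A few genes of growth arrest and apoptosis are given singly and stand for no list. CDKN1A and MDM2 were in the panel of 25 genes, and GDF15 came from the rule for list members. FDXR and BAX were picked after their values were seen. CDKN1A, the cyclin-dependent kinase inhibitor p21, had 55.1, 57.7 and 59.5 RPKM in HCT 116, against 0.0733, 2.77 and 35.3 RPKM as lowest, median and highest in the other libraries. HCT 116 was above each line, but SW 480 averaged 34.1 RPKM and was 1.67-fold below on the log2(RPKM + 0.5) scale. GDF15, a secreted stress cytokine, averaged 48.2 ± 8.94 RPKM in HCT 116 (SD, n = 3), 43.0 RPKM in HCT-15 and 38.8 RPKM in HT-29, with a difference of 2.37 from the mean of the lines. MDM2, a ubiquitin ligase, averaged 24.8 RPKM in HCT 116 and 7.71 to 21.2 RPKM in the others, a difference of 1.04. FDXR, a mitochondrial reductase, averaged 25.2 RPKM in HCT 116 and 8.56 to 12.5 RPKM in the others. BAX, an apoptosis effector, averaged 32.2 RPKM in HCT 116 and 32.3 to 85.8 RPKM in the others, a difference of -0.60.

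Wnt signals stabilise beta-catenin, which acts with TCF and LEF factors on targets that include feedback inhibitors and genes of the intestinal stem cell. Of 29 listed targets and stem cell genes, 27 were tested, with 6 higher and 20 lower in HCT 116. At 2-fold or more 4 were higher and 14 lower, and the median difference was -1.28, or -0.76 without COLO 205. Over all genes tested 41.6% were higher and 46.3% lower, and 9.44% and 9.65% by 2-fold. Members near 0 in HCT 116 passed the filter only through lines in which they were higher, so they had to come out lower. The counts and the median therefore do not stand for the list. ASCL2, a stem cell transcription factor, had 1 read over the 3 HCT 116 libraries, against a lowest of 2.71, a median of 20.2 and a highest of 39.1 RPKM in the other lines. AXIN2, a feedback scaffold of the destruction complex, had 4.56, 4.33 and 4.17 RPKM in HCT 116, against 17.7, 58.4 and 197 RPKM elsewhere. ZNRF3, a ligase that removes Wnt receptors, averaged 4.51 RPKM in HCT 116 and 18 to 25.7 RPKM in the others. HCT 116 was below every line at these 3 genes. LEF1 was near 0 in HCT 116 and also in HT-29, and LGR5, a stem cell receptor, was near 0 in HCT 116, SW 480 and HCT-15. DKK1, a secreted Wnt inhibitor and itself a target, was higher instead, with 122.9, 111.2 and 116.7 RPKM in HCT 116, against 0.0223, 13 and 47.3 RPKM as lowest, median and highest elsewhere. CD44, an adhesion receptor, was higher by 3.00, at 74.7 RPKM in HCT 116 and 80.8 RPKM in HT-29. PROM1, a stem cell surface protein, was higher by 2.55, at 7.79 RPKM in HCT 116 and 30.4 RPKM in HT-29, so neither stood above every line.

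The promoters of SP5 and DKK1, 2 Wnt targets that moved apart, show how the TCF motif is placed in them. SP5, a repressor, averaged 0.515 RPKM in HCT 116, against 0.483 RPKM in COLO 320 and 5.85 to 48.0 RPKM in the other 4 lines. The letters searched were CTTTGAA and CTTTGAT on either strand, which reads TTCAAAG and ATCAAAG on the strand shown, and they are in capitals. DKK1 is at chr10:52314031-52314330 and SP5 at chr2:170715087-170715386 on GRCh38.p14, both on the plus strand.
DKK1: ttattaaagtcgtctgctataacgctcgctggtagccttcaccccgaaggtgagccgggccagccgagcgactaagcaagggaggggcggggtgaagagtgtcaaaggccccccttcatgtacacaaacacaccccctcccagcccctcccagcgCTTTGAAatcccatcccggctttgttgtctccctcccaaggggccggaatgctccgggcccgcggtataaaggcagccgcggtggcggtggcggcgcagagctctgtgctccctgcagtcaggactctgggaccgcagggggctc
SP5: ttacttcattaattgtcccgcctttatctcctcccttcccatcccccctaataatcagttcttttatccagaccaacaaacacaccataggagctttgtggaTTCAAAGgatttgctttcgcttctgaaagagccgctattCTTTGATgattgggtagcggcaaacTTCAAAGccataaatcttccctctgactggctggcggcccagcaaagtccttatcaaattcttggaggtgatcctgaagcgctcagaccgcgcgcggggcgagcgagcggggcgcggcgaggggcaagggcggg
DKK1 held the motif 1 time and SP5 3 times. Of the 17 Wnt targets with a window 3 held it, the third being PROM1, which is 17.6%, against 5.92% of all 11208 matched genes. A match in letters is a description of the window and no evidence of binding.

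Among ligands, receptors and destruction complex genes of the Wnt pathway, 13 of 33 tested were higher and 18 lower, beside 41.6% and 46.3% of all genes, and without SW 480 16 were higher and 13 lower. WNT16 averaged 36 RPKM in HCT 116 and at most 1.5 RPKM in another line, and WNT3A averaged 1.67 RPKM and at most 0.0425 RPKM. WNT10B was higher than the mean of the lines (2.05) but below COLO 320, and WNT11 was lower (-2.89). CTNNB1, which encodes beta-catenin, averaged 131 RPKM in HCT 116 and 70.8 to 367 RPKM in the others. APC, the scaffold of the destruction complex, averaged 5.24 RPKM in HCT 116 and 4.06 to 6.47 RPKM in the others. MYC averaged 190 RPKM in HCT 116, against 1849 RPKM in COLO 320 and 64.0 to 109 RPKM in the other 4 lines. The long RNA CCAT1 averaged 2.92 RPKM in HCT 116 and 0.0974 to 27.9 RPKM in the others.

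**Figure D3:**
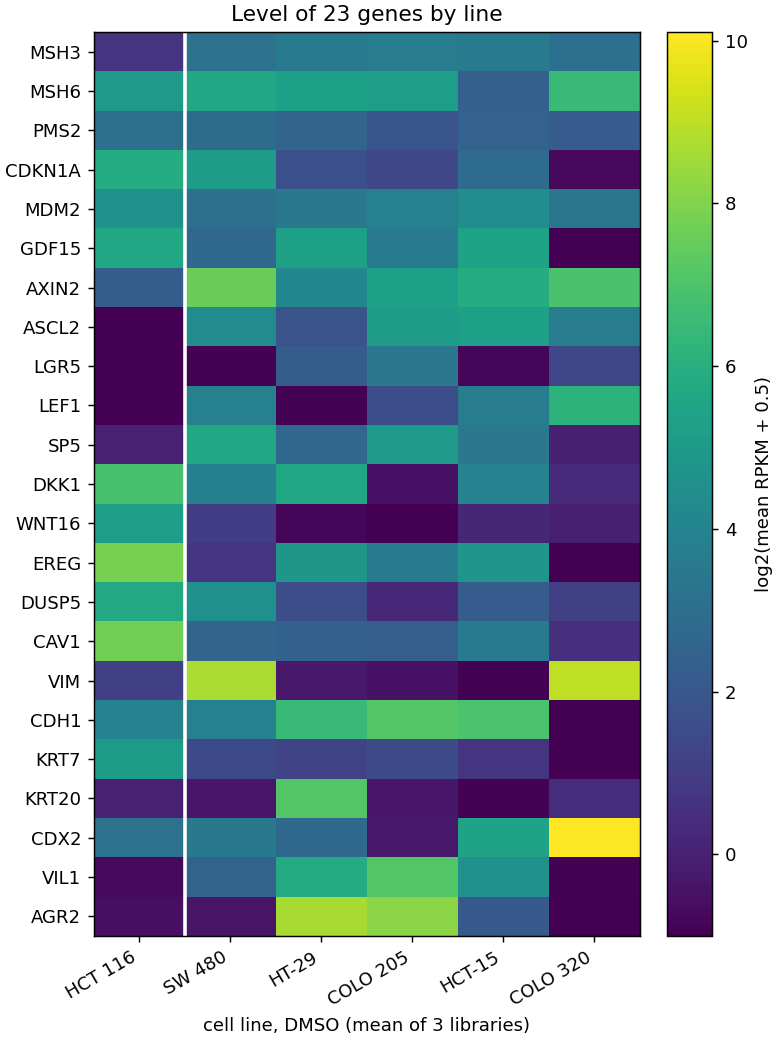
Mean level of 23 genes in log2(RPKM + 0.5) (colour) in each line's 3 DMSO libraries, HCT 116 at the left of the white line. MSH3 is darkest in HCT 116 (1.09 RPKM), EREG and CAV1 brightest there (226.9 and 212.6 RPKM), and VIL1 and AGR2 are dark in HCT 116 and bright in HT-29 and COLO 205.

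The EGFR pathway passes growth factor signals through the MAP kinases, which switch on early response and feedback genes. Of 19 ligand and receptor genes 14 were tested, 9 higher and 4 lower, beside 41.6% and 46.3% of all genes. EREG, the ligand epiregulin, had 227.3, 222.7 and 230.6 RPKM in HCT 116, against a lowest of 0, a median of 11.4 and a highest of 30.3 RPKM in the other libraries. AREG, the ligand amphiregulin, averaged 5.70 RPKM in HCT 116 and at most 2.57 RPKM in another line. ERRFI1, a feedback inhibitor of EGFR, averaged 203.8 RPKM in HCT 116 and at most 61.6 RPKM in another line. All 3 stood above every line, and LRIG1, another EGFR inhibitor, was lower (-1.88). Of 25 MAP kinase output genes, 19 were higher and 6 lower, with a median of 1.26, or 0.67 without COLO 320. By 2-fold 13 were higher and 3 lower, beside 9.44% and 9.65% of all genes. DUSP5, a nuclear ERK phosphatase, averaged 51.7 RPKM in HCT 116 and at most 23.3 RPKM in another line. MYEOV and FOSL1 averaged 63.2 and 53.7 RPKM in HCT 116, but 96.6 and 82.1 RPKM in SW 480. IER3 averaged 199 RPKM in HCT 116 and 168 RPKM in SW 480, PHLDA2 averaged 137 RPKM in HCT 116 and 166 RPKM in HT-29, and SPRY1, an ERK inhibitor, was lower (-1.67). PIK3CA averaged 6.30 RPKM in HCT 116 and 5.78 to 13.2 RPKM in the others.

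Genes of the mature colon are described by line, because a gene near 0 in HCT 116 passed the filter on low values only through a line in which it was higher, and so had to differ. Counts over members that passed do not stand for these lists. Enterocyte and colonocyte genes absorb, transport and build the brush border, and of 33 listed 17 passed the filter, 1 higher and 16 lower, with a median of -1.16, or -0.70 without COLO 205. VIL1, the brush border protein villin, averaged 0.106 RPKM in HCT 116, and COLO 320 was as low (0.03 RPKM) while COLO 205 had 138 RPKM. TSPAN8, a tetraspanin, averaged 0.178 RPKM in HCT 116 and 0.273 RPKM in SW 480, against 472 RPKM in HT-29. LGALS4, a galectin, was near 0 in HCT 116, HCT-15 and COLO 320 and reached 497 RPKM in HT-29. Mucin and goblet genes showed 1 higher and 13 lower of 14 tested, with a median of -1.40. AGR2, a secretory chaperone, averaged 0.189 RPKM in HCT 116, 399 RPKM in HT-29 and 288 RPKM in COLO 205. At VIL1, TSPAN8, LGALS4 and AGR2 the highest lines were HT-29 and COLO 205, and 1 or more of the others were near the level of HCT 116. Of the members tested in both lists, 0 lay below every line by 2-fold. Of 5 CEACAM genes tested, 4 were lower, with a difference of -2.28 at CEACAM1.

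Intestinal transcription factors followed in part, with 7 higher and 14 lower of 21, beside 41.6% and 46.3% of all genes. CDX2, the main intestinal homeobox factor, averaged 8.70 RPKM in HCT 116, against 1099 RPKM in COLO 320 and 0.33 to 41.3 RPKM in the other 4 lines, so its direction turned without COLO 320. CDX1 was listed at 0 in HCT 116, SW 480, HCT-15 and COLO 320. FOXA1 and FOXA2, endoderm factors, had differences of -2.30 and -2.11. KRT20, a keratin of mature colon cells, averaged 0.523 RPKM in HCT 116 and 141 RPKM in HT-29, and without HT-29 its difference turned to 0.32. Of 17 keratins 4 were higher and 12 lower, with a median of -0.50, but without SW 480 8 were higher and 6 lower and the median was 0.05. KRT7, a keratin that normal colon mostly lacks, had 34.2, 30.7 and 33.3 RPKM in HCT 116 and averaged at most 2.42 RPKM in another line. Of 28 genes listed for drug and steroid metabolism 22 passed the filter, 4 higher and 17 lower, with a median of -1.75, or -1.11 without COLO 205. In this list, as among the factors and keratins above, a gene near 0 in HCT 116 passed only through a line in which it was higher. These counts and medians therefore do not stand for the lists. ALDH1A1, a retinal dehydrogenase, averaged 0.224 RPKM in HCT 116, close to SW 480 and HCT-15, against 225 to 335 RPKM in the other 3 lines. The UGT1A genes share exons, so their low values cannot be counted as separate genes. CYP24A1, which degrades vitamin D, had 96.6, 90.9 and 94.5 RPKM in HCT 116 and averaged at most 14 RPKM in another line, and ALDH1A3, another retinal dehydrogenase, averaged 95.8 RPKM and at most 44.3 RPKM.

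Mesenchymal genes, which mark motile cells that have loosened from an epithelium, were mixed. Of 20 tested, 13 were higher and 6 lower, beside 41.6% and 46.3% of all genes, with a median of 0.93, or 0.45 without COLO 320. CAV1, the coat protein of caveolae, had 215.9, 210.5 and 211.4 RPKM in HCT 116, against 0.879, 4.95 and 11 RPKM as lowest, median and highest elsewhere. CAV2, its partner, averaged 76.0 RPKM in HCT 116 and at most 11 RPKM in another line. AXL, a receptor kinase, and LGALS1, a galectin, were higher by 4.13 and 3.89, although SW 480 had more of both. VIM, the intermediate filament vimentin, averaged 1.67 RPKM in HCT 116, against 412 RPKM in SW 480 and 520 RPKM in COLO 320. The median of VIM over the 15 other libraries was 0.394 RPKM, below HCT 116. TGFBI, a matrix protein, was lower (-3.88). Of 25 epithelial adhesion genes 18 were higher and 6 lower, with a median of 0.38, but without COLO 320, in which most were near 0, 7 were higher and 18 lower and the median was -0.40. CDH3, P-cadherin, stood above every line, at 38.8 RPKM in HCT 116 and at most 21.6 RPKM elsewhere. CDH1, E-cadherin, averaged 14.6 RPKM in HCT 116, 13.9 RPKM in SW 480, 0.00736 RPKM in COLO 320 and 92.9 to 144 RPKM in the other 3 lines. EPCAM averaged 186 RPKM in HCT 116, against 1.37 RPKM in COLO 320 and 242 to 808 RPKM in the other 4 lines, and TGFBR2, a TGF-beta receptor, averaged 10.9 RPKM and 0.0997 to 40.6 RPKM.

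**Figure D4:**
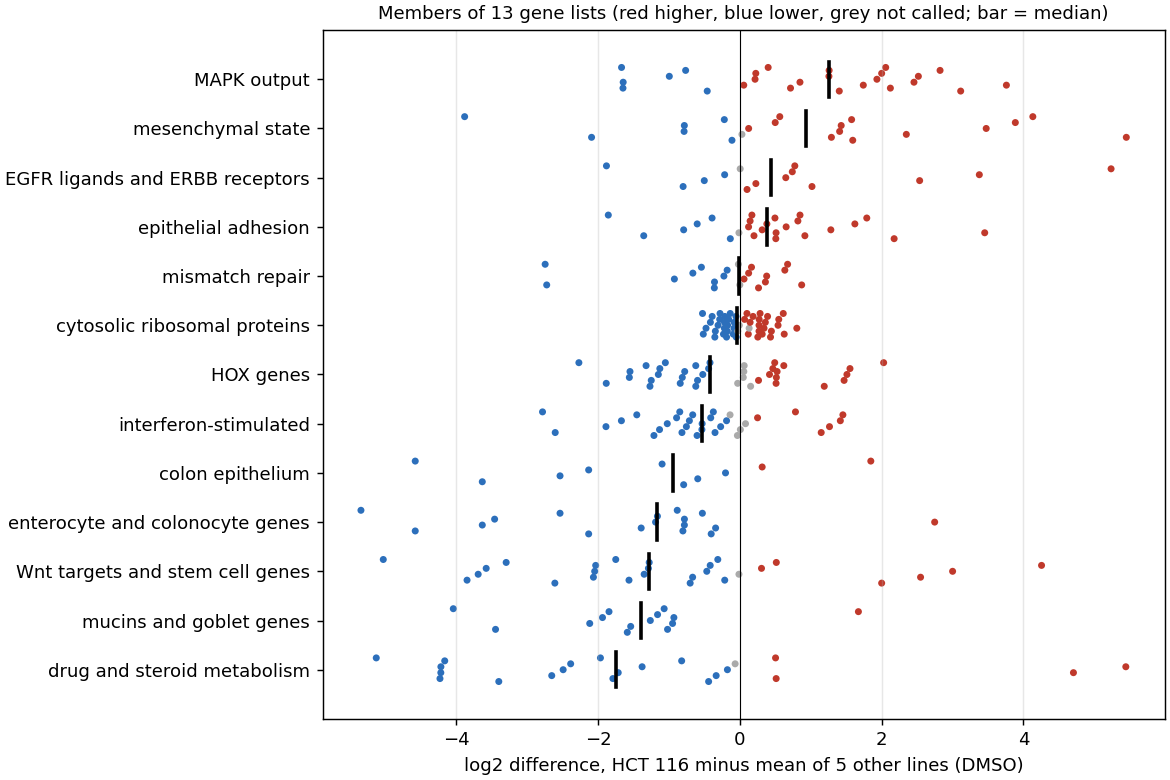
Difference of each tested member (points, log2, HCT 116 minus the mean of 5 other lines, DMSO) in 13 gene lists, with the list median as a black bar. Medians run from 1.26 for MAP kinase output genes to -1.75 for drug and steroid metabolism, and ribosomal protein genes stay close to 0. A member near 0 in HCT 116 passed the filter only through another line, so medians of lists with such members do not stand for the whole list.

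Interferon-stimulated genes showed 6 higher and 22 lower of 32, beside 41.6% and 46.3% of all genes. By 2-fold 4 were higher and 8 lower, beside 9.44% and 9.65% of all genes. The median of the list was -0.53, or -0.21 without COLO 205. BST2, OAS1, MX1 and IFI27, named for the largest differences of either sign, had -2.79, -2.61, -1.89 and -1.67. In the lists of this paragraph a member near 0 in HCT 116 passed the filter only through a line in which it was higher. Their counts and medians therefore do not stand for the lists. Of 18 genes of MHC class I presentation 6 were higher and 11 lower. PSMB8, an immunoproteasome subunit, averaged 0.0712 RPKM in HCT 116 and 0.218 to 37.0 RPKM in the others, and the peptidase ERAP2 averaged 0.305 RPKM and 0.76 to 20.04 RPKM. HLA-B, whose many alleles affect mapping, was higher (1.47), at 54.2 RPKM in HCT 116 and 56.5 RPKM in SW 480. Of 16 NF-kB targets and chemokines 6 were higher and 8 lower, with differences of 2.01 at NFKB2 and -3.14 at LCN2, the siderophore binding lipocalin.

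The other lists are given by their counts, to be read beside the 41.6% higher and 46.3% lower of all genes tested. By 2-fold those shares were 9.44% and 9.65%. BMP and TGF-beta genes gave 14 higher and 14 lower of 30, with ID1, a BMP target, above every line at 160.5 RPKM in HCT 116 and at most 43.2 RPKM elsewhere. Notch genes gave 10 higher and 7 lower of 17, led by HES4 (3.09) and HEYL (2.56). Cell cycle inhibitors and cyclins gave 10 higher and 8 lower of 18, and cyclin D1 CCND1 was higher (2.00), at 284 RPKM in HCT 116 and 863 RPKM in SW 480. CDKN2A, the inhibitor p16, averaged 16.1 RPKM in HCT 116, 0.0343 RPKM in HCT-15 and 12.7 to 68.2 RPKM in the others, and its direction turned without HCT-15. MYC network genes gave 4 higher and 7 lower of 13, and integrins 8 and 8 of 16. Tight junction genes gave 5 higher and 10 lower of 19, with 0 higher and 6 lower by 2-fold, and 1 higher and 17 lower without COLO 320. HOX genes gave 13 higher and 19 lower of 37 with a median of -0.42, and 17 and 16 with a median of -0.02 without SW 480. S100 genes gave 6 higher and 4 lower of 12 with a median of 0.24, and 3 and 8 with a median of -0.44 without COLO 320. Metallothioneins gave 4 higher and 4 lower of 9, and ABC transporters 5 and 8 of 14. DNA methylation enzymes gave 6 higher and 6 lower of 12, with DNMT3B, a de novo methyltransferase, above every line at 10.6 RPKM in HCT 116 and at most 5.93 RPKM elsewhere. Ribosomal proteins gave 21 higher and 24 lower of 48 with a median of -0.04 and 0 beyond 2-fold, and housekeeping genes 6 and 5 of 12. Markers of colon epithelium gave 2 higher and 8 lower of 10. Of 8 markers listed for each type, 3 of fibroblasts passed the filter (1 higher and 2 lower), 4 of leukocytes (0 and 4) and 5 of neuroendocrine cells (1 and 4). A marker near 0 in HCT 116 passed only through a line in which it was higher, so these counts do not stand for the cell types. None of 5 endothelial markers passed the filter.

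Beyond the 24 genes furthest apart, the largest differences from the mean were led by NPW, a neuropeptide, at 81.5 RPKM in HCT 116 and at most 8.77 RPKM in another line. AKAP12, a kinase scaffold, had 416, 419 and 409 RPKM in HCT 116, against 97.7 RPKM in SW 480 and at most 8.70 RPKM in the other 4 lines. PDP1, a mitochondrial phosphatase that activates pyruvate dehydrogenase, averaged 300.3 RPKM in HCT 116 and 40.6 RPKM in SW 480. EEF1A2, the elongation factor of muscle and neurons, averaged 259 RPKM in HCT 116 and 77.5 RPKM in SW 480. On the low side, SELENBP1, a selenium binding protein, averaged 0.0127 RPKM in HCT 116 and 1.76 to 595 RPKM in the others. TM4SF1, a membrane protein, averaged 0.236 RPKM in HCT 116, 0.00692 RPKM in COLO 320 and 11 to 204 RPKM in the other 4 lines, and FCGRT, the neonatal Fc receptor, averaged 0.109 RPKM in HCT 116 and 0.695 to 97.0 RPKM in the others.

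The difference varied by chromosome. Chromosome 13 had a median of -0.65 over 263 genes, of which 30 were higher (11.4%) and 215 lower (81.7%). Medians were -0.40 on X and -0.33 on chromosome 20, and 0.38 on chromosome 8, 0.33 on chromosome 18 and 0.22 on chromosome 10. On chromosome 13 the median gap was -1.19 to COLO 205, -0.75 to COLO 320, -0.48 to SW 480, -0.48 to HT-29 and -0.04 to HCT-15. Against HCT-15 the chromosome medians ran from -0.10 to 0.10 on all chromosomes other than 8, where it was 0.24. Copy number was not measured in these libraries.

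In the JQ1 libraries, 1475 genes were higher in HCT 116 than the mean of the other lines by 2-fold or more (9.74%) and 1401 lower (9.25%). Of the 1430 and 1461 genes beyond 2-fold in DMSO, 1140 and 1074 were beyond 2-fold in the same direction in JQ1. Of the 307 genes above every line in DMSO, 207 were also above every line by 2-fold in JQ1, 303 were called higher than the mean of the others and 1 had the opposite sign. Of the 121 below, 89 were also below every line, 120 were called lower and 0 had the opposite sign. Set against the spread between line means, 14 genes were called higher and 3 lower by 2-fold or more in JQ1. Cells had been exposed to a drug that acts on transcription, so this is no repeat of the untreated state. GTSF1 averaged 130 RPKM in HCT 116 under JQ1 and MAGEB2 121 RPKM, and their line differences of 7.90 and 7.85 moved by -0.10 and 0.06 from those in DMSO. MSH3 had a difference of -2.75 in JQ1. KRT7 had a difference of 1.06 in JQ1 and 4.25 in DMSO, and the change between treatments was not tested for it.

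**Figure D5:**
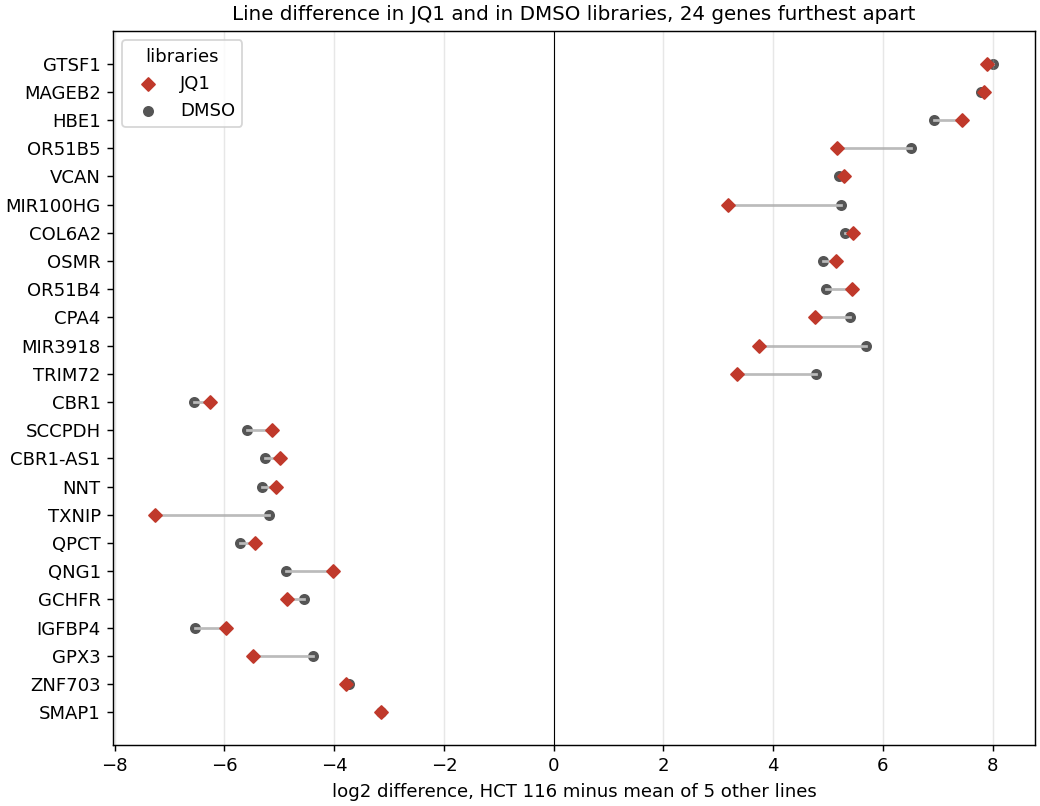
Difference of HCT 116 from the mean of the 5 other lines (log2, horizontal axis) in JQ1 libraries (red diamonds) and DMSO libraries (grey circles) for the 24 genes furthest apart, each the contrast of 3 HCT 116 and 15 other libraries. All 24 keep their sign, and the longest bars are at TXNIP (-7.26 in JQ1, -5.19 in DMSO) and MIR100HG (3.19 in JQ1, 5.24 in DMSO).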

How the data were processed

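RNA-seq values were deposited by the authors as RPKM per gene, 1 column for each of 36 libraries. GSNAP, DESeq and limma, and a build called NCBIM37, are named in the submitters' processing notes with no roles or versions. That is a mouse assembly name while the gene numbers are human, so no coordinates were taken from it. Annotation, strand and read length are not given in the sources used here.

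Values were transformed to log2(RPKM + 0.5) for 15145 genes with at least 1 RPKM in 3 or more of 18 DMSO libraries, so a fold change of a low gene is understated. limma 3.58.1 in R 4.3.3 fitted 1 mean per line with a mean-variance trend (12 residual degrees of freedom, two-sided, Benjamini-Hochberg over all genes), and JQ1 libraries were fitted separately. Reads were recovered from the RPKM steps, whole within 0.01 for 23499 genes (100%), and gave depth and an alternative fit with voom. A single read in a 1 kb gene amounts to between 0.0335 and 0.0495 RPKM, and genes carried 20.2 to 26.3 M reads in each DMSO library. Replicate libraries correlated at 0.9966 to 0.9977, and none agreed within sampling noise. The scripts were tested on simulated data.

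Named genes were the 12 furthest above and 12 furthest below every other line (at least 5 RPKM on the higher side), the 6 largest remaining differences each way, up to 4 called members of each of 37 lists, and a panel of 25. OR51B2 and the globin genes beside it, LIFR, and some further list members were named after their values were seen. The members and lists were chosen with earlier results of these data known. Alternatives were the pseudocount, the filter, scaling, voom, the cell line as unit, each line or library left out and a replicate block. Promoter sequences are from RefSeq (GRCh38.p14). Some genes, a gene list and 1 gene called with the cell line as unit are not reported here.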

Additional observations from a re-analysis of the deposited data

Results flagged for a closer look

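Whether the difference between HCT 116 and the other 5 lines was the same in JQ1 and DMSO libraries was tested at the 24 genes furthest apart. The test was an interaction in 1 limma fit of all 36 libraries, an alternative added after seeing the data. The difference was not the same (adjusted p under 0.05) at all but GTSF1, MAGEB2, ZNF703 and SMAP1. The 24 genes were chosen on DMSO values that enter this test, and the share of all genes tested that moved was not counted. Listed here are the 6 genes at which it moved by more than 2-fold, with Benjamini-Hochberg adjusted p. The HCT 116 level was lower in JQ1 at OR51B5 (18.6 RPKM in JQ1, 50.5 RPKM in DMSO), and its line difference moved by -1.346 (adjusted p = 2.64e-14). Its neighbours HBE1 and OR51B4 moved the other way by less than 2-fold, 0.50 (adjusted p = 3.78e-05) and 0.46 (adjusted p = 1.76e-09). In HCT 116 HBE1 averaged 102.6 RPKM in JQ1 and 72.4 RPKM in DMSO, and OR51B4 21.1 and 15.8 RPKM. MIR100HG averaged 4.12 RPKM in JQ1 and 19.6 RPKM in DMSO, a move of -2.053 (adjusted p = 2.00e-23). TRIM72 averaged 4.94 RPKM in JQ1 and 15.7 RPKM in DMSO, a move of -1.446 (adjusted p = 2.20e-13). MIR3918, which cannot be told from its host gene, moved by -1.942 (adjusted p = 1.60e-04).

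At 2 genes that were low in HCT 116 the gap widened instead, while HCT 116 stayed near 0 and the other lines were higher in JQ1. The mean of the other 5 line means was 148.4 RPKM in JQ1 and 26.7 RPKM in DMSO at TXNIP. At GPX3 it was 55.0 RPKM in JQ1 and 14.1 RPKM in DMSO. TXNIP averaged 0.180 RPKM in JQ1 and 0.209 RPKM in DMSO in HCT 116, and its line difference moved by -2.073 (adjusted p = 4.85e-19). GPX3 averaged 0.217 RPKM in JQ1 and 0.128 RPKM in DMSO in HCT 116, and its line difference moved by -1.099 (adjusted p = 1.95e-16). All 6 genes kept the sign of their line difference in JQ1.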

How the results depend on the processing

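Counts over all genes changed by over 1.5 times as follows, and some list counts did so too when 1 line was left out, of which those for epithelial adhesion, keratin, tight junction and S100 genes stand beside their lists. Below every line there were 211 genes with a pseudocount of 0.1, 291 with voom, 232 without HCT-15 and 249 without COLO 320, and above every line 184 with a mean of at least 1 RPKM and 464 without SW 480. With voom, 2216 genes were higher by 2-fold in DMSO, and 2316 higher and 2149 lower in JQ1. With the cell line as unit 5 genes were higher and 4 lower at any size in DMSO, and 14 and 3 by 2-fold or more in JQ1. Of 186 named genes 177 lost their call, and MSH6, also among the 186, had none to lose. Leaving out 1 library gave 302 to 310 genes above and 120 to 127 below every line, 6151 to 6314 higher, 6812 to 7029 lower, 1430 to 1450 and 1456 to 1475 by 2-fold, and 1458 to 1483 and 1397 to 1413 in JQ1. By pair it gave 2658 to 2683 for HCT-15, 3950 to 3994 for SW 480, 4428 to 4459 for HT-29, 4593 to 4614 for COLO 320 and 4949 to 4965 for COLO 205. Replicate numbers did not pair the libraries (r of -0.064 to 0.085 over 45 same-numbered pairs, 7 of 18 libraries closest to their own number), and with the replicate block 6304 genes were higher and 7015 lower.

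Directions turned at a few genes, and the cause was not tested. With voom CDH1 was 0.334 and NCAM1 1.36. Without SW 480, MSH6 was 0.149, CCAT1 -0.368, CTNNB1 0.300 and NCAM1 0.130. Without HT-29, MSH6 was 0.0707 and KRT20 0.324. Without COLO 205, MYC was -0.00903, CTNNB1 0.00842 and CD68 0.732. Without HCT-15, CDKN2A was -0.529. Without COLO 320, MSH6 was 0.374, CCAT1 -0.250, CDX2 0.353, EPCAM -1.27, TGFBR2 -0.684, KRT19 -0.107, S100A6 -0.104 and COL3A1 0.0265. List medians near 0 also changed sign. Without COLO 320 they were -0.39 for metallothioneins, -0.10 for integrins, -0.08 for housekeeping and -0.03 for BMP and TGF-beta genes. Without HT-29 they were 0.17 for NF-kB targets and 0.05 for mismatch repair.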
